A study of Mus musculus with 8 samples.

Results

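The genes described here are those for the 8 subunits of the CCT chaperonin, also called TRiC, namely Tcp1, Cct2, Cct3, Cct4, Cct5, Cct6a, Cct7 and Cct8. They were chosen by name, not by their values, and all 8 were listed in each of the 3 tables of genes, which together hold 10690 genes. The tables come from NIH3T3 cells, an established line of mouse fibroblasts, which the labels give as proliferating in every sample and from which total RNA was taken. Nontreated cells (NT) were compared with cells kept in 250 μM sodium arsenite for 1 h (AS) and with cells that had, after the same treatment, recovered in regular medium for 4 h (termed RC4) or for 8 h (RC8). Each condition has 1 QuantSeq FWD library, so every difference below is between 2 libraries, and there is no replicate and no P value. A 95% interval covers the counting of reads only, and since the reads carried no molecular identifiers in the tables used here, they are not independent molecules.

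CCT is a chaperonin of the cytosol that folds proteins inside a cavity closed by a built-in lid, driven by ATP. It consists of a pair of stacked rings, each with a copy of every subunit at a fixed place, so that a complete ring needs all 8 gene products. Tcp1 encodes subunit α, Cct2 β, Cct3 γ, Cct4 δ, Cct5 ε, Cct6a ζ, Cct7 η and Cct8 θ. Actins and tubulins are its best-known substrates. They are handed over by prefoldin, phosducin-like proteins modulate the complex, and tubulin cofactors take over newly folded tubulin. Arsenite damages proteins through their thiols and is known to switch on heat shock genes through HSF1.

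The depth on genes was 22.4 to 23.0 M reads per library, as summed from the tables. Levels are given as RPM, that is, reads of a gene after scaling the reads on genes of each library to 1000000. The treatment left its mark in the libraries. Hmox1, which encodes heme oxygenase and is a known arsenite-inducible gene, was higher than in NT by 1.07 (log2) in AS, 5.01 at RC4 and 1.87 at RC8. All 10 fibroblast markers were listed in the 3 tables, and of 10 markers of epithelial, blood, endothelial, neuronal and muscle cells only Tubb3 was listed. Tubb3, which is also in the tubulin list below, had 2.79 RPM in NT, 2.32 in AS, 11.0 at RC4 and 15.8 at RC8, and the other 9 markers were in none of the tables. Of the fibroblast markers 0 were at least 1.5-fold lower than NT in AS, against 11.4% of all genes. At RC4 5 were lower, against 31.8%, and at RC8 7, against 11.9%. Scaled by the median of ratios, 3 were lower at RC4, against 1752 of 10081 genes. The median log2 changes in RPM were −0.05, −0.59 and −0.85, and the part of this in the results below was not tested. QuantSeq reads come from the 3′ ends of RNAs, so these levels do not grow with transcript length, and a change in the total RNA of a cell does not show in them. In bulk RNA, fewer cells that express a gene and less RNA per cell cannot be told apart.

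QuantSeq FWD reads lie near 3′ ends but need not reach them. The authors' method, MAAPER, therefore assigned them by a model to known poly(A) sites (PASs). The PAS given the most reads of a subunit gene, called leading here, is shown first, and it is not an observed read end. PAS positions are those listed in the tables, in the mm9 genome, and the gene models are those of GENCODE vM1 on the same build. The polyadenylation signal is a hexamer, most often AATAAA or ATTAAA, a short way before the cleavage site. In the leading PAS of NT, either of these hexamers lay within 40 nt upstream in 2 of the 8 subunit genes, against 62.3% of 10452 genes and 51.4% of the 1513 genes with at least 3000 NT reads. These genes were Cct4 and Cct6a. The 30 bases that end at the PAS of Cct4 are shown as a case with a canonical signal, which stands in capitals:
Cct4, chr11:22903308-22903337, plus strand: aaaacATTAAAtacttggttttaaactcca

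In 4 other genes neither hexamer was found upstream, but 1 of them lay within 100 nt downstream of the leading PAS. This arrangement was seen in 4 of 8 subunit genes, 14.7% of all genes and 23.6% of genes with at least 3000 NT reads. The first downstream hexamer began 54 nt after the PAS in Tcp1, 85 nt in Cct2, 42 nt in Cct3 and 17 nt in Cct5. The windows below hold it in capitals, on the strand of the gene:
Tcp1, chr17:13117392-13117421, plus strand: tgggtgtctcacATTAAAgtacagcaagct
Cct2, chr10:116487934-116487963, minus strand: actttaccgtttAATAAAgtaattatctta
Cct3, chr3:88125658-88125687, plus strand: ttgcttccaatgATTAAAtctaagtcattt
Cct5, chr15:31520572-31520601, minus strand: tgtagatgctggAATAAAagcagctgtctg
A match is only a description of the letters. For Cct7 and Cct8 neither hexamer was found on either side of the leading PAS in these windows.

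The listed PASs and the gene models did not always end at the same base. The annotated end of the gene lay beyond the leading PAS by 583 nt in Tcp1, 481 nt in Cct8, 443 nt in Cct4, 225 nt in Cct7, 61 nt in Cct3 and 51 nt in Cct5. In Cct2 the leading PAS lay 18 nt past the annotated end, and in Cct6a 537 nt past it. The 20 bases after each of the 17 listed PASs held at most 8 A and no run of A longer than 3. Whether reads of Tcp1 include those of another gene was not tested, although its 3 PASs lie inside Acat3, a gene on the opposite strand that none of the 3 tables lists. The 250 bases before the PAS were compared with the whole genome. Another place with at least 95% identity over at least 100 nt was found for Cct4, with 99.1% identity over 107 nt, and for the proximal PAS of Cct7, with 95.3% over 129 nt, so that reads of these genes could in part be shared with a copy. No such place was found for the other 15 PASs.

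All subunits were well expressed, but not equally. In NT the order was Cct7, Cct6a, Cct8, Cct3, Cct4, Tcp1, Cct2 and Cct5, and no counting intervals of neighbours overlapped. Cct7 led in each library and Cct5 was last in each. The lowest subunit, Cct5, still had more reads than 87.6% of genes in NT. The ratio of Cct7 to Cct5 was 6.46 in NT, 7.30 in AS, 7.17 at RC4 and 9.36 at RC8. Subunits that fill equal numbers of places in a ring thus had read levels several-fold apart.

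The subunits known to bind and use ATP most strongly are Cct5, Cct4, Cct2 and, to a lesser degree, Tcp1, and they are taken first. Cct5 encodes subunit ε, which can form rings on its own in vitro. It had 156 RPM in NT, 155 in AS, 181 at RC4 and 136 at RC8. It was therefore highest in RC4 and lowest in RC8, and AS and NT could not be separated at this depth (log2 change −0.01, 95% interval −0.07 to 0.06). The change from NT was 0.21 at RC4 (0.15 to 0.28) and −0.19 at RC8 (−0.26 to −0.12).

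Cct4, which encodes δ, gave 393 RPM in NT, 415 in AS, 438 at RC4 and 502 at RC8. In RPM each later library stood above the one before. With other scales RC8 was not above RC4, at −0.07 with the median of ratios and −0.02 with the 75th percentile of gene reads. The log2 change from NT in RC8 was 0.35 (0.31 to 0.39), the largest of any subunit in that comparison. Cct2 encodes β, which is also known as a receptor for the autophagy of protein aggregates. Its level was 295 RPM in NT, 323 in AS, 366 at RC4 and 348 at RC8. All 3 libraries of treated cells were above NT, by 0.13 (0.08 to 0.18), 0.31 (0.26 to 0.35) and 0.24 (0.19 to 0.28).

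Tcp1, the founding member of the family, which lies in the mouse t complex, had 333 RPM in NT, 358 in AS, 382 at RC4 and 335 at RC8. It was highest in RC4 (0.19, 0.15 to 0.24), and in RC8 it could not be separated from NT (0.01, −0.04 to 0.05).

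The remaining subunits use ATP weakly. Cct7, which encodes η, had 1007 RPM in NT, 1135 in AS, 1297 at RC4 and 1277 at RC8. It was the most changed subunit upwards in AS (0.17, 0.15 to 0.20) and RC4 (0.36, 0.34 to 0.39), and in RC8 it was still 0.34 above NT (0.32 to 0.37). By RPM the level of Cct6a, which encodes ζ, was the steadiest, with 539 in NT, 557 in AS, 532 at RC4 and 552 at RC8. Its largest change from NT was 0.05 (0.01 to 0.08), in AS. With the median of ratios its change in RC4 was 0.28, and the largest change of Cct3 was 0.23, also in RC4. Cct6b, a relative of Cct6a known from testis, was listed in none of the tables.

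Cct3, which encodes γ, had 433 RPM in NT, 484 in AS, 412 at RC4 and 495 at RC8. It was higher than NT in AS and RC8 but lower in RC4, where the log2 change was −0.08 (−0.12 to −0.03). Cct6a had the same signs, though its intervals in RC4 (−0.06 to 0.01) and RC8 (−0.002 to 0.07) both held 0. Cct8 encodes θ, a subunit whose amount is known to influence assembly of the complex. It gave 476 RPM in NT, 457 in AS, 552 at RC4 and 448 at RC8. It showed the opposite order, above NT in RC4 alone (0.21, 0.17 to 0.25) and below it in AS (−0.06, −0.10 to −0.02) and RC8 (−0.09, −0.13 to −0.05).

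**Figure D1:**
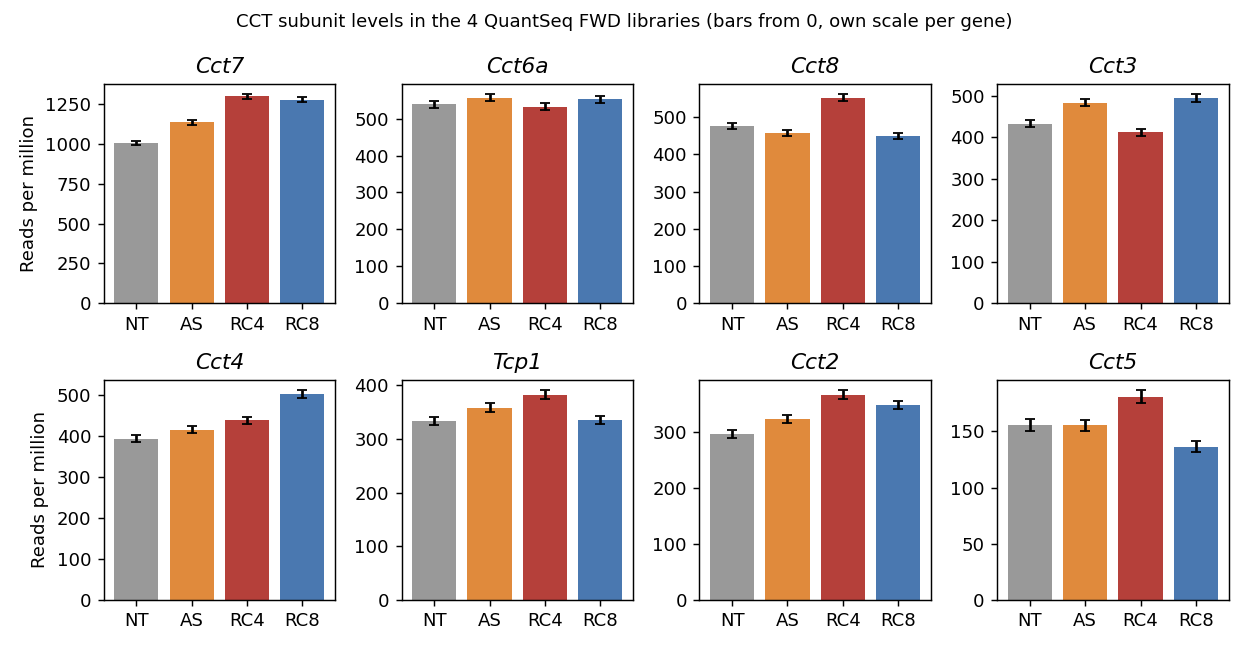
RPM (vertical axis, from 0, on a separate scale for each gene) of the 8 CCT subunits in the NT, AS, RC4 and RC8 libraries. Each bar is 1 library and each error bar its exact Poisson 95% counting interval. Cct7 lies between 1007 and 1297, and Cct5 lies between 136 and 181.

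The order of the subunits was not fixed. Cct3 stood above Cct8 in AS and RC8, and Cct8 stood above Cct3 in NT and RC4. In RC8 the counting intervals of Cct4 and Cct3 overlapped, as did those of Cct2 and Tcp1. Of the reads of all subunits together, Cct7 held 27.7% in NT, 29.2% in AS, 31.2% at RC4 and 31.2% at RC8. The share of Cct3 was 11.9% in NT, 12.5% in AS, 9.90% at RC4 and 12.1% at RC8. That of Cct5 was 4.29% in NT, 4.00% in AS, 4.35% at RC4 and 3.33% at RC8. Cct4 held 10.8% in NT and 12.3% in RC8, and Cct8 held 13.1% in NT and 11.0% in RC8. The complex as a whole took up 0.363% of the reads on genes in NT, 0.388% in AS, 0.416% at RC4 and 0.409% at RC8.

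In RPM no subunit changed by 1.5-fold in any comparison. In AS 0 of 8 subunits were at least 1.5-fold above NT, against 1.88% of all genes, and 0 were at least 1.5-fold below it, against 11.4%. The corresponding numbers were 0 of 8 higher against 8.04% and 0 of 8 lower against 31.8% in RC4. In RC8 they were 0 of 8 higher against 11.3% and 0 of 8 lower against 11.9%. The 3 comparisons share the NT library, so they do not add up to independent evidence. The contrast with all genes was widest for lower genes in RC4.

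Most subunits stood slightly above NT. In AS 6 subunits were above and 2 below, with a median log2 change of 0.09 (range −0.06 for Cct8 to 0.17 for Cct7), against a median of −0.04 over all genes. In RC4 6 were above and 2 below, with a median of 0.20 (range −0.08 for Cct3 to 0.36 for Cct7), against −0.30. In RC8 6 were above and 2 below, with a median of 0.12 (range −0.19 for Cct5 to 0.35 for Cct4), against 0.01. The genes below NT were not the same throughout, being Cct5 and Cct8 in AS, Cct3 and Cct6a at RC4, and Cct5 and Cct8 at RC8. Summed over all subunits, the change was 0.10 in AS (0.08 to 0.11), 0.19 at RC4 (0.18 to 0.21) and 0.17 at RC8 (0.16 to 0.19).

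At a lower limit of 0.32 on the log2 scale, Cct7 was called higher in RC4, 1 of 8 subunits against 13.8% of all genes. In RC8 Cct4 and Cct7 were called, 2 of 8 against 24.7%. These shares are close to those of all genes.

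**Figure D2:**
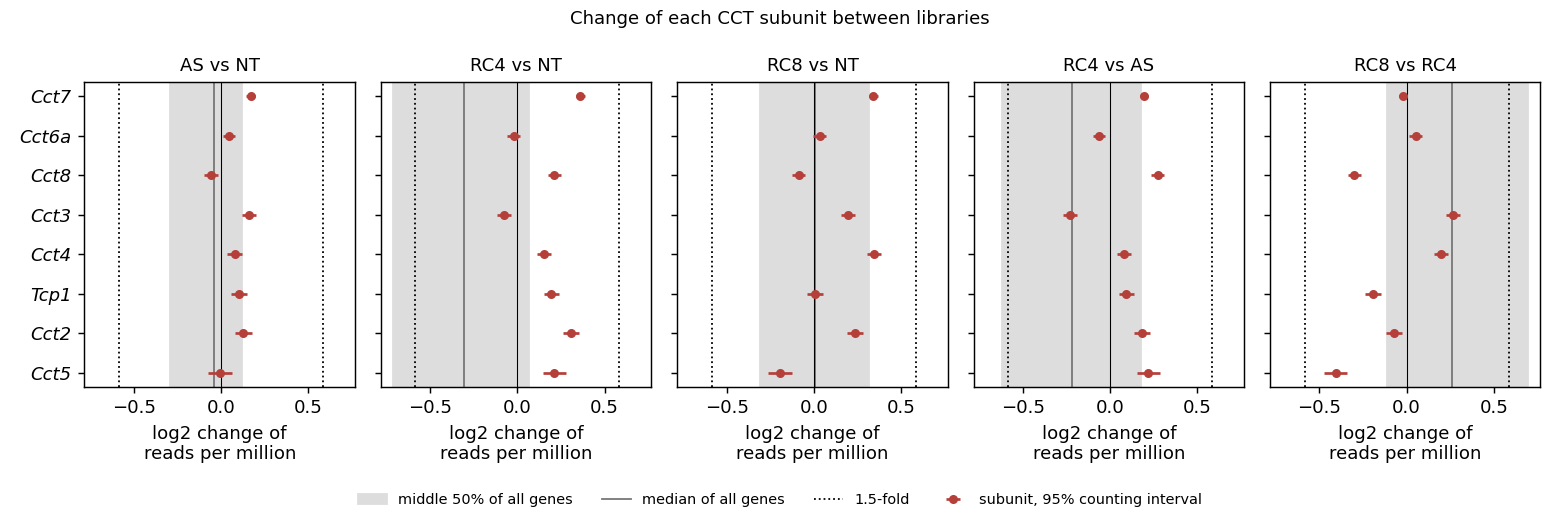
Log2 change of RPM (horizontal axis) of each CCT subunit in 5 comparisons. Points are subunits with 95% counting intervals, the grey band holds the middle 50% of all genes, the grey line is their median and dotted lines mark 1.5-fold. No point reaches a dotted line, and in RC4 vs NT 6 of the 8 points lie above 0 while the median of all genes lies at −0.30.

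The size of the changes in RC4, and their sign for Cct3 and Cct6a, depend on how libraries are put on a common scale. RPM values assume that the total is comparable, but genes of the heat shock list below took 0.983% of reads in NT, 1.08% in AS, 3.08% at RC4 and 1.35% at RC8, and the part this plays in the changes of the subunits was not tested. Scaling by the median of ratios instead shifted all genes upwards by 0.30 in RC4 vs NT. All 8 subunits were then above NT, so that Cct3 (0.23) and Cct6a (0.28) changed sign. Cct7 (0.66) and Cct2 (0.61) passed 1.5-fold, 2 of 8 subunits against 15.0% of genes. With the 75th percentile as scale, only Cct7 (0.61) passed, 1 of 8 against 13.3%. The share of higher genes among all calls in RC4 was 20.2% with RPM, 46.3% with the median of ratios and 40.5% with the 75th percentile. In AS and RC8 no subunit passed 1.5-fold under any of these scales. With the median of ratios 216 of 10452 genes were higher and 1065 lower in AS, and 1163 of 10441 higher and 1265 lower in RC8. With the 75th percentile 266 genes were higher and 909 lower in AS, and 1274 higher and 1151 lower in RC8. The number of subunits above NT in AS and RC8 was 7 and 5 with the median of ratios and 8 and 6 with the 75th percentile.

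Deeply sequenced genes have less counting error, so the subunits were also set beside genes with a mean of at least 3000 reads in the libraries compared. Of these genes 1.15% were at least 1.5-fold higher and 3.59% lower in AS, 11.5% higher and 12.9% lower in RC4, and 8.51% higher and 10.9% lower in RC8. The median change of these deep genes was 0.05 in AS, 0.00 at RC4 and −0.03 at RC8. The low median of all genes in RC4 was thus not shared, in RPM, by genes with many reads. Such genes weigh most in the total used for RPM, and they were chosen in part by their reads in RC4. Their median is therefore a description. Over the 3 comparisons with NT, no subunit moved by more than 0.36. Of 9875 genes listed in all tables, 21.0% stayed within that limit in all 3 comparisons, and of 1468 deep genes 40.9% did. The limit was taken from the subunits themselves, so these shares are a description.

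Between AS and RC4, which do not involve NT, 6 subunits were higher in RC4 and 2 lower. The median log2 change was 0.14, against −0.22 over all genes. Cct8 had the highest change (0.27, 0.23 to 0.31), followed by Cct5 (0.22), Cct7 (0.19) and Cct2 (0.18). Cct3 had the lowest (−0.23, −0.27 to −0.19), and Cct6a was also below 0 (−0.06). Scaled by the median of ratios, Cct6a was at 0.15 and Cct3 at −0.01, and with the 75th percentile at 0.10 and −0.07, so that 7 of 8 subunits were above 0 under either scale. Of 8 subunits 0 were at least 1.5-fold higher, against 12.5% of all genes, and 0 were lower, against 26.6%. The share of higher genes among all calls was 32.0% with RPM, 51.4% with the median of ratios and 46.4% with the 75th percentile.

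Between RC4 and RC8 the subunits parted. Cct5 was lower in RC8 by 0.41 on the log2 scale (−0.41, −0.47 to −0.34), Cct8 was at −0.30 (−0.34 to −0.26) and Tcp1 at −0.19 (−0.24 to −0.15). Cct3 was higher by 0.27 (0.23 to 0.31) and Cct4 by 0.20 (0.16 to 0.24). Cct2 (−0.07), Cct7 (−0.02) and Cct6a (0.05) lay between. The subunits with the highest levels in RC4 relative to AS, Cct8 and Cct5, were those with the lowest change afterwards, and both comparisons use the same RC4 library. In all 3 subunits were above and 5 below, with a median of −0.05, against 0.26 over all genes. Of 8 subunits 0 were at least 1.5-fold higher, against 30.6% of genes, and 0 were lower, against 6.59%. At a limit of 0.32 Cct5 was called lower, 1 of 8 against 14.3%. At 1.5-fold it was called with the median of ratios (−0.67), 1 of 8 against 14.2%, and with the 75th percentile (−0.62), 1 of 8 against 12.5%. Under the median of ratios only Cct3 was not below 0 (0.00). The share of higher genes among all calls went from 82.3% with RPM to 56.6% with the median of ratios and 62.2% with the 75th percentile.

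The 2 count columns of each library gave nearly the same changes. Over 40 values, 8 subunits in 5 comparisons, the log2 change differed between the columns by a median of 0.03 and at most by 0.10. What the columns stand for was not given in the sources used here, so they were not used as replicates.

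The other genes of this folding pathway were taken from lists chosen by function. Of 10 listed genes of prefoldin and its relatives 8 were in the tables. Their median log2 change was 0.04 in AS, −0.23 at RC4 and −0.07 at RC8. Pdrg1 was the highest in RC4 (0.12), and its change was also 0.12 in AS and 0.30 in RC8. Pfdn4, a subunit of prefoldin, was the lowest in RC4 (−0.80), with −0.44 in AS and −0.78 in RC8. It was the only gene of the list past 1.5-fold in RC4, 1 of 8 lower against 31.8% of all genes. With the median of ratios the median of the list in RC4 was 0.07, above 0. No gene passed, against 15.0% of all genes higher and 1752 of 10081 lower.

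The phosducin-like cofactors stayed within 1.5-fold of NT in RPM. With the median of ratios 1 of 3 was higher in RC4, against 15.0% of all genes. Txndc9, an inhibitor of CCT, had log2 changes of 0.05 in AS, 0.39 at RC4 and 0.57 at RC8. Pdcl, which helps CCT to assemble G protein β subunits, had −0.35, 0.11 and 0.22. Pdcl3 had −0.05, −0.25 and −0.02.

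Of the 6 tubulin cofactors, 2 were at least 1.5-fold higher in RC4, against 8.04% of all genes, and 1 lower, against 31.8%, with a median of −0.08. Tbcel was the highest (1.13, 0.88 to 1.39), with only 187 reads in NT and 416 in RC4. Tbcd, which acts on β-tubulin, was the lowest (−0.65). Neither was past 1.5-fold in AS or RC8. With the median of ratios the median in RC4 was 0.22 and no cofactor was called lower, against 1752 of 10081 genes.

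Several substrates were past 1.5-fold in RPM while no subunit of the complex that folds them was. For actins and tubulins the median change was 0.24 in AS, 0.12 at RC4 and 0.44 at RC8, over 17, 15 and 14 listed genes. In RC4 4 of 15 were at least 1.5-fold higher, against 8.04% of all genes, and 2 lower, against 31.8%. In RC8 5 of 14 were higher, against 11.3%, and 0 lower, against 11.9%. Tubb2a, a β-tubulin, had 148 RPM in NT, 188 in AS, 662 at RC4 and 562 at RC8. Tubg1, the γ-tubulin of microtubule nucleation, was the lowest in RC4 (−1.12). Under the median of ratios 7 of 15 were called higher in RC4, against 15.0% of all genes, and 2 lower, against 1752 of 10081 genes. Tubulin genes are similar in sequence, so reads of Tubb2a could in part belong to a relative.

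Of 15 other known substrates, 11 were at least 1.5-fold lower than NT in RC4, against 31.8% of all genes, and 0 were higher, against 8.04%, with a median of −0.71. With the median of ratios 7 were lower, against 1752 of 10081 genes, and 0 higher, against 15.0%, with a median of −0.40. In AS 0 of 15 passed in either direction, and in RC8 1 was lower, Stat3 (−0.98), against 11.9% of all genes. Plk1, a mitotic kinase, had 184 RPM in NT, 198 in AS, 23.5 at RC4 and 169 at RC8. It was far below the other libraries in RC4 alone. Gnb4, a G protein β subunit, was the highest in RC4 (0.14, −0.03 to 0.31).

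Of the 4 genes listed as chaperonin paralogs of CCT, Mkks and Bbs12 were in the tables. The log2 change of Mkks was 0.11 in AS, −0.39 at RC4 and −0.41 at RC8. For Bbs12 it was −0.21, −0.21 and 0.06. The median of both in RC4 was −0.30, and 0.00 with the median of ratios.

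The chaperonin of mitochondria was called higher in recovery, where no CCT subunit was called in RPM. Hspd1 encodes the ring subunit HSP60 and had 1131 RPM in NT, 826 in AS, 2528 at RC4 and 1700 at RC8. Hspe1, which encodes its lid HSP10, had 363, 383, 919 and 688. Both genes were thus at least 1.5-fold higher in RC4 (1.16 and 1.34), against 8.04% of all genes, and in RC8 (0.59 and 0.92), against 11.3%, while in AS Hspd1 was at −0.45 and Hspe1 at 0.08. With the median of ratios only 1 of the pair was past 1.5-fold in RC8, against 1163 of 10441 genes, since Hspd1 was at the limit. These genes sit head to head and share a promoter region.

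Cytosolic heat shock chaperones had the widest range. Of 20 listed genes 2 were at least 1.5-fold higher in AS, against 1.88% of all genes, 13 at RC4, against 8.04%, and 4 at RC8, against 11.3%, with medians of 0.13, 1.24 and 0.30. In RC8 1 gene was at least 1.5-fold lower, Hspa4l (−1.05), against 11.9% of all genes. Scaled by the median of ratios, 16 of 20 were higher in RC4, against 15.0% of all genes. Hspa1b, an inducible HSP70, had 42.3 RPM in NT, 218 in AS, 2369 at RC4 and 90.4 at RC8. Its change in RC4 was 5.80 on the log2 scale, and reads could be shared with Hspa1a, a near-identical copy. Cdc37, a cochaperone for kinases, was the lowest of the list in RC4 (−0.03). Its change was close to those of Cct6a and Cct3 in the same library.

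**Figure D3:**
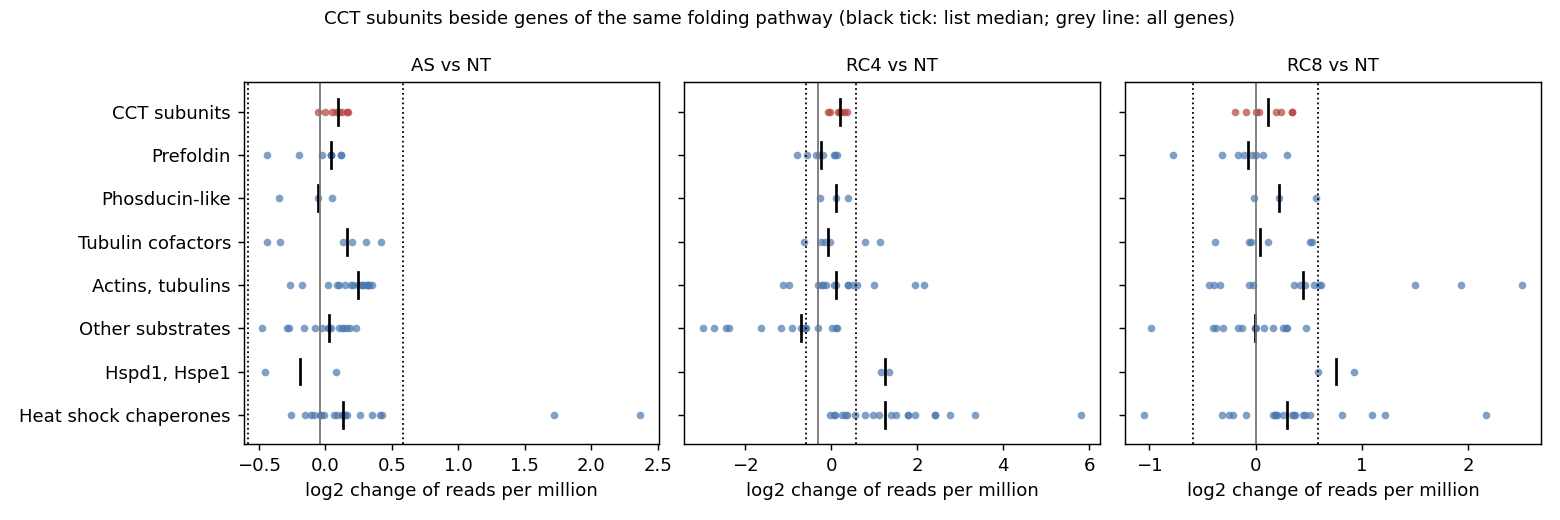
Log2 change of RPM from NT (horizontal axis, on a separate scale in each panel) in AS, RC4 and RC8 for CCT subunits (red) and genes of 7 related lists (blue). Each point is a gene, a black tick is the median of a list, the grey line is the median of all genes and dotted lines mark 1.5-fold. The 8 CCT points lie between −0.08 and 0.36 in RC4, where heat shock chaperones reach 5.80 and other substrates go down to −2.98.

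The genes whose changes lay nearest to the medians of the subunits were found among 7806 genes with at least 200 reads in every library. Likeness was the Euclidean distance over the 3 log2 changes from NT, which rest on 4 libraries. The nearest genes were Apba3, Tlk2, Gm10689, Cnn3, Gm5526, Rpl30-ps9, Crcp and Chp1, at distances of 0.04 to 0.07. Tlk2, a kinase of chromatin assembly, had changes of 0.06, 0.18 and 0.14, and Cnn3, a calponin that binds actin, had 0.05, 0.23 and 0.13. Tcp1 was the subunit closest to the medians of the group, at 0.11, with 0.756% of genes closer. Cct5 was farthest, at 0.32, with 10.3% of genes closer. The medians were taken from the subunits themselves, so these shares are a description.

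PAS use was compared next. Shares are MAAPER's estimates from reads near a PAS, and their intervals leave out the error of assigning reads to PASs. Cct4 and Cct5 had a single listed PAS, and the other 6 subunits had 2 or 3. A gene was called changed where the share of reads at a PAS moved by at least 10 percentage points, among genes with 2 or more PASs. In AS 0 of 6 subunits were called, against 15.2% of 5287 genes, in RC4 0 of 6 against 29.0% of 5343 genes, and in RC8 0 of 6 against 26.9% of 5357 genes. The largest shift of a PAS per gene had a median over the subunits of 1.4 points in AS, 1.7 at RC4 and 3.0 at RC8, and over all genes of 4.2, 6.2 and 6.0. These backgrounds hold genes of any depth, down to 50 reads in a library, and shares of genes with few reads carry more counting error. Cct2, the least read of these subunits, had 6668 reads in NT, against a median of 736.5 over all genes. The part of depth in these contrasts was not tested.

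Cct7 had the largest shift. The 30 bases before its PASs are shown because the proximal PAS lies in the coding part of the last exon and has none of 13 hexamers searched in this window, while the distal PAS in the 3′ UTR follows CATAAA, a variant of the signal:
Cct7 proximal, chr6:85418217-85418246, plus strand: ggatcctccagctccatcagctggccgtgg
Cct7 distal, chr6:85418387-85418416, plus strand: tgtgtttttCATAAAcattttcctgcctta
The PASs are 170 nt apart. The proximal PAS held 58.2% of the reads in NT (95% Wilson interval 57.6% to 58.8%), 64.5% in AS (63.9% to 65.1%), 60.5% at RC4 (59.9% to 61.1%) and 63.3% at RC8 (62.7% to 63.8%). All 3 libraries of treated cells were above NT, by 6.3 points in AS (5.43 to 7.17), 2.3 at RC4 (1.45 to 3.15) and 5.1 at RC8 (4.25 to 5.95). Cct7 was the only subunit past 5 points, 1 of 6 in AS against 42.3% of genes and 1 of 6 in RC8 against 57.7%. Of all genes 67.3% had a smaller shift in AS and 43.3% in RC8. The proximal PAS is the one whose upstream sequence has a near copy elsewhere in the genome.

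In Cct6a, whose level barely moved in RPM, the proximal PAS at chr5:130321846 held 26.4% of reads in NT, 26.2% in AS and 22.8% in RC4, the largest shift of a subunit in RC4 (−3.6 points, −4.68 to −2.52). In the RC8 table a further PAS at chr5:130321956 was listed, with 6.13% in NT and 10.7% in RC8 (4.57 points, 3.88 to 5.26). The proximal PAS then held 21.1% and 18.8%. The NT fraction of Cct6a thus depended on which PASs a table listed. The NT intervals of this PAS, 25.6% to 27.2% beside AS and 20.4% to 21.8% beside RC8, did not overlap. In each table the distal PAS led with 70.5% or more.

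In Cct8 the proximal PAS at chr16:87484224 held 20.7% in NT, 22.7% in AS, 19.6% at RC4 and 17.0% at RC8. Its share was above NT in AS (2.0 points, 0.89 to 3.12) and below NT in RC8 (−3.6, −4.65 to −2.55). In Cct3 the proximal PAS at chr3:88125009 lies in coding sequence of an internal exon, 619 nt before the leading PAS. It held 16.0% in NT, 15.3% in AS, 12.8% at RC4 and 13.4% at RC8. Its share was lower than in NT in both recovery libraries (−3.2 points, −4.19 to −2.21, and −2.4 points, −3.36 to −1.44).

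In Tcp1 and Cct2 no PAS moved by more than 2.4 points. The leading PAS of Tcp1 is also the most proximal and held 77.1% in NT, 79.5% in AS, 77.9% at RC4 and 79.4% at RC8. Its most distal PAS held 6.05% in NT and 4.89%, 4.95% and 4.11% in the later libraries. In Cct2 the distal PAS held 86.2% in NT and 87.0% in AS. The second PAS of Cct2 was listed at chr10:116488241 in the AS table and at chr10:116488216, 25 nt away, in the other tables. Its share in the latter was 15.0% in NT, 15.5% in RC4 and 14.0% in RC8, and no interval of a change in Cct2 excluded 0.

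**Figure D4:**
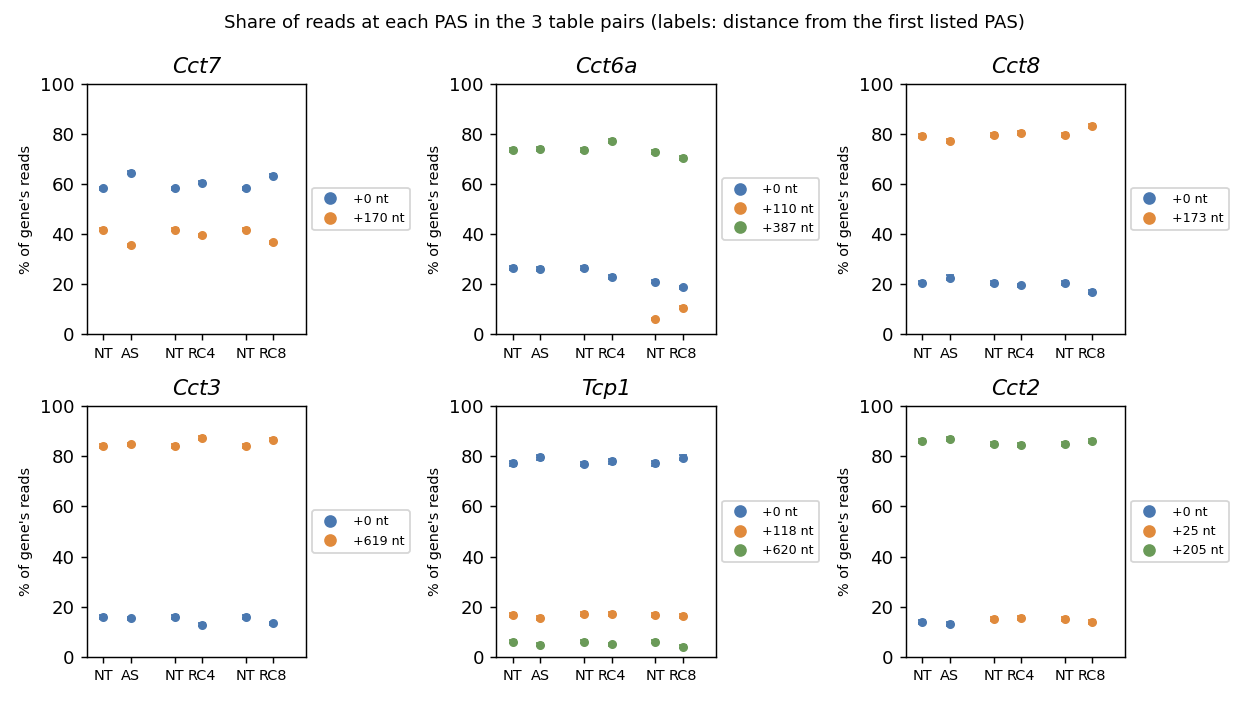
Share of reads of a gene at each PAS (vertical axis, percent, 0 to 100) in the library pairs of the AS, RC4 and RC8 tables for the 6 CCT subunits with more than 1 PAS. Points are libraries, bars (mostly hidden by the points) are 95% Wilson intervals and colours are PASs, named by distance in nt from the most proximal one. The pair of Cct7 lies closest together, with 58.2% of NT reads at the proximal PAS.

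Promoters were read last. RefSeq sequences on GRCm38.p6, from 250 bases before to 50 after each start site, were found for 7 of 8 subunits, all but Cct4. The heat shock element, the site of HSF1, consists of inverted GAA units, and GAANNTTC and TTCNNGAA were searched. Each equals its own reverse complement, so both strands are covered at once. At least 1 of them was found in 3 of 7 subunit genes, 17.0% of 27025 genes, and 13 of 20 genes of the heat shock list and mitochondrial chaperonin. These 20 are the genes with a promoter sequence, not the 20 heat shock genes whose levels are given above. They include Hspa1a and Hspb1, which have no levels here, and lack Hspa8, Hsp90aa1, Hsp90ab1 and Cryab. The windows with a match are shown because heat shock genes moved while no subunit passed 1.5-fold in RPM, and capitals mark the match:
Cct2, GRCm38.p6 chr10:117063399-117063428, minus strand: ccccaagtgaaGAAGTTTCtagcaggacct
Cct5, GRCm38.p6 chr15:31601862-31601891, minus strand: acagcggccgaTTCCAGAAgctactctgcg
Cct6a, GRCm38.p6 chr5:129787369-129787398, plus strand: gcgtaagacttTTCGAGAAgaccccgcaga
The matches begin 42 bases before a start site of Cct2, 34 before a start site of Cct5 and at base 25 after a start site of Cct6a. Cct2 has a further start site, whose window held no match. In RC4 the 3 genes with a match had changes of 0.31, 0.21 and −0.02 in RPM. With the median of ratios they had 0.61, 0.51 and 0.28, and Cct2 passed 1.5-fold. The subunits with a promoter but without a match, Cct3, Cct7, Cct8 and Tcp1, had −0.08, 0.36, 0.21 and 0.19 in RPM. With the median of ratios they had 0.23, 0.66, 0.51 and 0.50, and Cct7 passed 1.5-fold. The groups overlapped fully with either scale.

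GGGCGG, a box bound by SP1, was found on either strand in 7 of 7 subunit genes, 38.2% of all genes and 18 of the same 20 genes of the heat shock list and mitochondrial chaperonin. CCAAT was found on either strand in 4 of 7 subunit genes (Cct3, Cct6a, Cct7 and Tcp1), against 41.1% of all genes. TATAAA was found in 0 of 7, against 15.7%. GAANNTTC and TTCNNGAA can overlap, as can GGGCGG and CCAAT on the opposite strand, and a missing match says only that the letters are not in this window.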

How the data were processed

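3′ end-linked reads of 4 QuantSeq FWD libraries (NT, AS, RC4 and RC8) were used. Per the paper's methods and the submitters' processing notes, reads were trimmed with bbmap, mapped to mm9 with STAR (v2.5.2a) and analysed with MAAPER and the PASs of PolyA_DB v3, and no gene was listed with under 50 reads in a library. The authors deposited raw read counts of each gene, 2 columns for each library, and the columns were summed. The headers number the conditions of a table, and in keeping with the methods the first was read as NT, whose counts recur in all 3 tables, and the second as the treatment the table is named for. For each PAS the authors deposited MAAPER's fraction of the reads, summing to 1 in a gene, printed here as a percentage. The deposited P values, RED and RLD scores hold the authors' own comparisons and were not used. The 4 QuantSeq REV libraries were not analysed here.

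The subunits and gene lists were chosen with earlier results of these data known. Counts were scaled to 1000000 reads on genes per library and table (RPM), where each condition has its own table with NT. Depth was 22.4 to 23.0 M reads per library. NT levels were taken from the AS table. RC4 vs AS and RC8 vs RC4 were computed over genes in both tables. With 1 library per condition no test across replicates was possible. Intervals of levels are exact Poisson intervals, those of changes exact conditional binomial (Clopper-Pearson) intervals, those of PAS shares Wilson intervals and those of their differences Newcombe intervals, all at 95% and for counting error only. A gene was called where RPM changed by at least 1.5-fold, or where a PAS moved by at least 10 percentage points, and the share of all genes called in RPM is printed beside counts of subunits and beside most counts of list genes. The calculation was tested on simulated data. Alternatives changed the scale between libraries, the count column, the NT column, the filter on low reads, the thresholds and the PASs compared. The background of genes with at least 3000 reads was chosen after seeing the data. Named genes were all 8 subunits, the highest and lowest gene in RC4 vs NT of each list (all genes of lists with 4 or fewer) and the 8 genes nearest to the subunits' medians. Hmox1, Tubb3, Stat3, Hspa4l and Hspa1a were named in addition after their values were seen. Hspb1, Hspa8, Hsp90aa1, Hsp90ab1 and Cryab were named to describe the promoter set. Sequences were read from mm9 with pysam (v0.24.0) and GENCODE vM1, copies were searched with BLAST (v2.17.0), and promoters came from RefSeq on GRCm38.p6. Python (v3.11.15), numpy (v2.4.6), pandas (v2.3.3), scipy (v1.17.1) and matplotlib (v3.10.9) were used. Sequences before the leading PAS were printed for Cct4 and Cct7 alone, and 1 further sequence is not reported here.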

Additional observations from a re-analysis of the deposited data

How the results depend on the processing

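No paired analysis was possible because each condition has 1 library, and leaving out a replicate was not possible for the same reason. Scaling moved the most values. With the median of ratios, the summed change of the subunits was 0.14 in AS, 0.50 in RC4, 0.32 in RC4 vs AS and −0.29 in RC8 vs RC4, and the median over the subunits was 0.51 in RC4, 0.36 in RC4 vs AS and −0.31 in RC8 vs RC4. With the 75th percentile, the summed change was 0.19 in AS, 0.44 in RC4, 0.20 in RC8, 0.26 in RC4 vs AS and −0.24 in RC8 vs RC4, and the median was 0.19 in AS, 0.45 in RC4, 0.30 in RC4 vs AS and −0.26 in RC8 vs RC4. The number of subunits at least 1.5-fold higher in RC4 was 2 with the median of ratios (15.0% of all genes) and 1 with the 75th percentile (13.3%). The number at least 1.5-fold lower in RC8 vs RC4 was 1 with each (14.2% and 12.5%). At a limit of 0.32 (log2), 1 subunit was higher in RC4 (13.8% of all genes), 2 in RC8 (24.7%) and 1 lower in RC8 vs RC4 (14.3%). At 5 percentage points, 1 subunit changed PAS use in AS (42.3% of genes) and 1 in RC8 (57.7%). With totals over genes of at least 200 reads, the summed change in RC8 vs RC4 was −0.0093. The cause of these differences was not tested, apart from the thresholds, which act by their construction.

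Counts of called subunits were the same as reported with either count column, with NT reads of another table, with genes in all 3 tables, at 2-fold, at 20 points, with PASs of at least 10% and with PASs of the 3′-most exon alone. Of the 40 changes of single subunits, 28 moved by more than their counting interval with the median of ratios, 33 with the 75th percentile and 1 with either count column alone. Counting error did not limit the larger changes. Changes whose counting interval holds 0, such as that of Cct5 in AS, were not detectable in RPM at this depth. With the 75th percentile the change of Cct5 in AS was 0.09, outside its counting interval in RPM (−0.07 to 0.06). Variation between libraries could not be measured with 1 library per condition.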
